A study of Mus musculus with 109 samples.

Results

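Nuclear genes for subunits of the respiratory chain were followed in single granule cell progenitors (GCPs) and granule cells (GCs) of the mouse cerebellum. The members were the rows of the count table whose symbol begins with Nduf followed by a, b, c, s or v and a number, with Uqcr, with Cox4 to Cox8 or with Atp5, or is Sdha, Sdhb, Sdhc or Sdhd. This gave 79 of the 15973 rows, with 36 in complex I, 4 in complex II, 8 in complex III, 12 in complex IV and 19 named for complex V. The cells came from C57BL/6 mice at P7 and were labelled granule precursor cells. They received no treatment that the labels name. Each cell gave a Smart-seq library, in which cDNA copied from the RNA of 1 cell is amplified along its length. Sample names fall into 6 library groups, each of 18 or 19 cells, and these served as replicates. The labels do not say whether these groups came from separate animals, so the spread between them may be technical.

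The respiratory chain lies in the inner mitochondrial membrane. Complexes I and II pass electrons from NADH and succinate to ubiquinone, complex III passes them to cytochrome c, and complex IV passes them to oxygen. Complex V, the ATP synthase, uses the proton gradient that complexes I, III and IV build up. Most subunits are encoded in the nucleus and a few in mitochondrial DNA. Cycling progenitors of the external granule layer are known for high aerobic glycolysis, and their descendants become neurons, which rely largely on oxidative phosphorylation.

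Levels were expressed as CPM, counts per 1000000 counts of a cell or of a sum of cells. Cells with Mki67, the gene of the proliferation antigen KI67, at 100 CPM or more were called Mki67-high (32 cells, 3 to 8 per library group). Cells under 10 CPM were called Mki67-low (75 cells, 10 to 15 per library group), and 2 cells lay between. The Mki67-low cells were divided at their median Dcx level, 1781 CPM, into 38 Dcx-high and 37 Dcx-low cells, where Dcx encodes the microtubule-binding protein doublecortin of young neurons. Total counts per cell ran from 15071 to 8616017, with a median of 3604792, and 70.9% of all values in the table were 0. The cell with 15071 counts was 1 of the 2 cells between the Mki67 classes. More than 10000 genes were detected in 2 Mki67-high cells of library groups 3 and 6, and 5 cells carried astroglial genes, of which 3 were Mki67-high, those 2 among them, and 2 were Dcx-low. Granule lineage genes marked the preparation, with Pax6, Meis1, Zic1 and Neurod1 each at 5 counts or more in at least 99 cells, while Zic2 and Barhl1 reached this in 66 and 48. The 10 astroglial markers summed to 267 to 2720 CPM in the Mki67-high and 335 to 4176 CPM in the Mki67-low library groups. Oligodendrocyte lineage markers summed to 60.7 to 2451 CPM in the Mki67-high and 228 to 1363 CPM in the Mki67-low groups, and microglial markers to 0 to 190.5 and 0 to 1.77 CPM, with all 6 microglial genes higher on average in Mki67-high cells. The 2 listed endothelial genes of 5 summed to at most 5.98 CPM. Markers of inhibitory neurons (5 of 6 listed) summed to 0.029 to 28.05 CPM in the Mki67-high and 36.2 to 803 CPM in the Mki67-low library groups, lower in the former in 6 of 6, and their part in the results was not tested.

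A few upstream sequences are shown first because the genes behind them had very different levels. Atp5g1, Atp5g2 and Atp5g3 encode the same mature c subunit of the membrane ring of complex V, each behind its own import sequence, and Cox6a1 had the highest level per length among the members. The sequences are those that RefSeq gives before its start of each gene (build GRCm38.p6, minus strand in each case), without bases that GENCODE places in an exon of the gene. They cover chr11:96075671-96075870, chr15:102671128-102671297, chr2:73911327-73911526 and chr5:115348982-115349181. The Atp5g2 stretch lies in an intron of the longer gene drawn by GENCODE. Capitals mark CCAAT (bound by NF-Y), GGGCGG (bound by Sp factors) and GCATGCGC (bound by NRF1) on either strand, and a run of capitals longer than its motif is an overlap of the motif with itself on the other strand. Also searched were CCGGAAG (ETS factors) and AAGATGGC (YY1), which do not occur in these stretches.
Atp5g1: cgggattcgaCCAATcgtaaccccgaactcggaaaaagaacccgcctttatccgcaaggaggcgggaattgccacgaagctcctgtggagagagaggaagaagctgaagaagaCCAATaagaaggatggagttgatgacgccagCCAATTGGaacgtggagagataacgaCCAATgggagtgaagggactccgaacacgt
Atp5g2: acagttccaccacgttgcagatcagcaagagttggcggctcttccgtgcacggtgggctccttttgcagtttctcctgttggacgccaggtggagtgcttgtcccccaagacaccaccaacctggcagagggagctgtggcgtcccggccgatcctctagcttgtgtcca
Atp5g3: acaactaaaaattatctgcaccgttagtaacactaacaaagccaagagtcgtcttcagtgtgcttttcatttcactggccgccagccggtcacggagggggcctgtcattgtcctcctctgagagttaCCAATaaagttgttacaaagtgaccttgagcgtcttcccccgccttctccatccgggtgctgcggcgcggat
Cox6a1: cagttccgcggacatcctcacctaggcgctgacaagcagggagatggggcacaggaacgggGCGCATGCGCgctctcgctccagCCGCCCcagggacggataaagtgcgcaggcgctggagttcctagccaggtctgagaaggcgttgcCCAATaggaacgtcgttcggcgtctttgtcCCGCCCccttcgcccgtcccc

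The Atp5g1 stretch held 5 matches to CCAAT, 2 of them overlapping, the Atp5g3 stretch held 1, and the Atp5g2 stretch held no match to the 5 motifs. That stretch stops 80 bases short of the RefSeq start of Atp5g2, and the bases in between, which GENCODE places in an exon, hold GCATGCGC. The Cox6a1 stretch held GCATGCGC on both strands of the same place, GGGCGG in 2 places and CCAAT in 1. RefSeq promoters were matched by symbol for 63 of the 79 members. Over the 250 bases before the start, GCATGCGC was found for 8 of the 63 (12.7%), against 5.17% of the 9643 genes of the count table that matched, and CCGGAAG for 12 (19.05%), against 15.2%. CCAAT was found for 27 (42.9%), against 41.3%, AAGATGGC for 1 (Atp5j; 1.59%), against 2.35%, and GGGCGG for 21 (33.3%), against 63.96%. Of all 27025 genes with such a promoter, 2.56% held GCATGCGC, 7.83% CCGGAAG, 37.5% CCAAT, 1.83% AAGATGGC and 35.4% GGGCGG. These counts of letters were not tested.

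Transcripts of the members were found in every cell. The mean levels of the 79 members summed to 11233 CPM, and the sum in a single cell ran from 1432 to 26828 CPM with a median of 11169. Complex I gave 35.1% of the summed mean level, complex V 33.1%, complex IV 16.6%, complex III 10.6% and complex II 4.64%. In 50% or more of the cells, 49 members had at least 5 counts, and 9 members had a median of 100 CPM or more. Atp5a1 and Cox6a1 had a count in every cell, while 10 members had a median of 0 CPM. The level of a member was uneven from cell to cell. The 5 cells with the most of a member held 15.1% or more of its CPM, with a median of 30.6%, over the 73 members tested below.

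Of complex I, 7 members are core subunits, which carry the redox groups, and 29 are accessory subunits. Ndufa1 (286.8 CPM per kb of exon sequence), Ndufa2 (239) and Ndufa4 (212) had the highest mean levels per length in complex I, where the median was 54.4. Ndufa1 and Ndufa2 encode small accessory subunits, and Ndufa4 encodes a protein first found with complex I and later placed in complex IV. Ndufa4 had 5 counts or more in 96 cells (88.1%, Wilson 95% interval 80.7 to 92.9), and its 5 highest cells held 15.1% of its CPM, the lowest such share among the tested members. This interval and those that follow treat cells as independent draws and leave out the spread between library groups. The reads carry no molecular identifiers, so counts are not numbers of molecules.

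Complex II, succinate dehydrogenase, consists of nuclear-encoded subunits alone. Sdhb, its iron-sulfur subunit, had a mean of 224 CPM (100.1 CPM per kb) and at least 5 counts in 61 cells (55.96%, interval 46.6 to 64.9). The membrane anchor Sdhd had 113 CPM (91.5 per kb) and was at 5 counts in 37 cells. The flavoprotein Sdha had 124 CPM (30.1 per kb) in 31 cells, and the other anchor, Sdhc, had 59.5 CPM (18.3 per kb) in 27 cells. The median level was 0 CPM for Sdha and Sdhc, 0.33 CPM for Sdhd and 5.92 CPM for Sdhb.

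In complex III, Uqcr11 (189.9 CPM per kb), Uqcrh (149) and Uqcr10 (148) led, all small subunits. The Rieske iron-sulfur protein Uqcrfs1 had 104 CPM per kb, and Uqcrc2, a core protein without a redox group, had 77.5. In complex IV, Cox6a1 had 973 CPM per kb, followed by Cox6b1 (233) and Cox4i1 (219), with a median of 75.4. Cox6a1, the widely expressed form of subunit VIa (chromosome 5, 115345642 to 115348981 on GRCm38), was at 5 counts or more in 101 cells (92.7%, interval 86.2 to 96.2). Over library groups its mean level ran from 281 to 1146 CPM. Cox4i1 was at 5 counts in 99 cells, Cox8a in 66 and Cox7b in 62. Cox4i2, Cox6a2, Cox6b2, Cox7b2, Cox8b, Cox8c and Ndufa4l2 were not analysed here.

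In complex V, Atp5a1 (297 CPM per kb), Atp5g3 (227) and Atp5c1 (218) led. Atp5a1 and Atp5c1 encode the alpha and gamma subunits of the catalytic F1 head. The longest transcript as the length put Atp5g3 first (573) and Atp5a1 second (348), and it put Uqcrh before Uqcr11 in complex III. The length of the transcript with the longest coding sequence put Ndufa4 (649), Ndufa3 (359) and Ndufa1 (287) first in complex I, Uqcrh (338) in complex III and Atp5g3 (692) in complex V. Cox6a1 was first in complex IV and Sdhb in complex II with each of these lengths. Atp5s and Atp5sl, whose proteins are not part of the synthase, had means of 10.2 and 18.3 CPM and a count in 11 and 12 cells. Atp5l-ps1, a pseudogene, and Atp5l2 did not reach 5 counts in any cell.

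**Figure D1:**
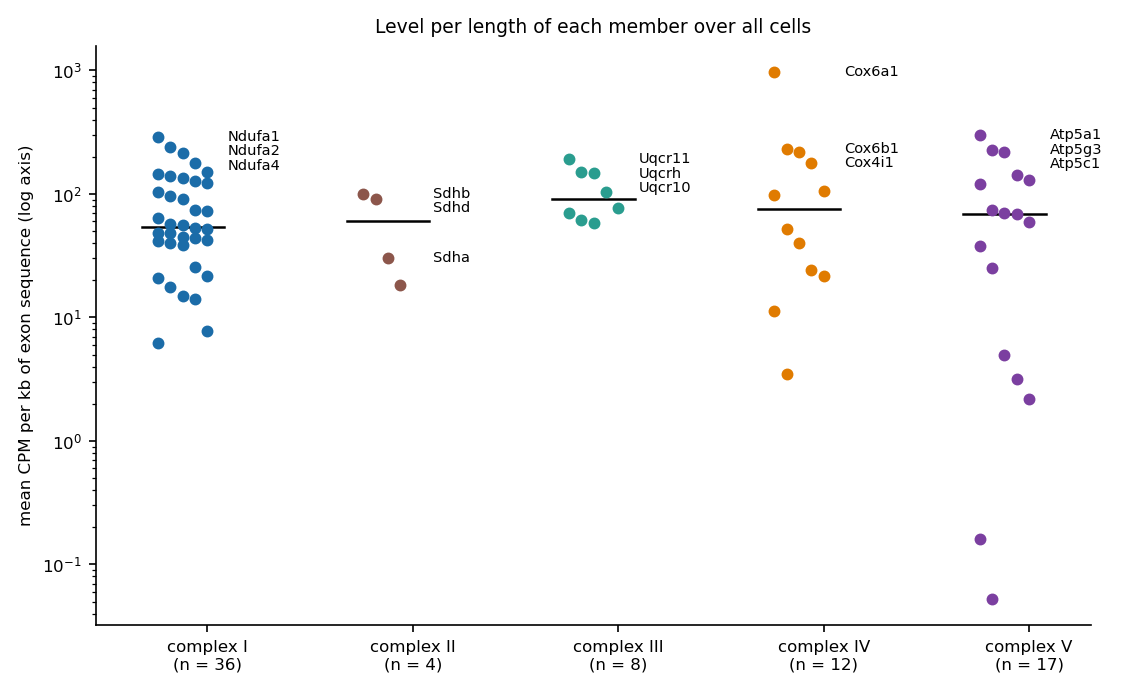
Mean level of each member over all cells in CPM per kb of exon sequence (log axis), by complex; each point is 1 gene with a length in GENCODE, the bar is the median of the complex, and the 3 highest genes are named. Cox6a1, at 973 CPM per kb, stands above the other members, and complex V spans the widest range.

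The genes of an isoform family differed widely in level. Of the c subunit genes, Atp5g3 (chromosome 2, 73908447 to 73911326) had a mean of 494 CPM and a count in 102 cells. Atp5g1 (chromosome 11, 96068852 to 96075670) had 15.5 CPM and a count in 70 cells, with 70.3% of its CPM in 5 cells. Atp5g2 (chromosome 15, 102662864 to 102672352) had 0.27 CPM and a count in 7 cells. Per kb of exon sequence the levels were 227, 3.16 and 0.16. This exon sequence is 2181, 4912 and 1675 bases long, while the transcripts with the longest coding sequence have 714, 596 and 441 bases. The exon length therefore makes the gap between Atp5g3 and Atp5g1 wider than the transcript length would. Of the Cox7a genes, Cox7a2, the widely expressed form, had 167 CPM in 100 cells. Cox7a2l, whose protein has been linked to supercomplexes, joint assemblies of complexes III and IV, had 77.2 CPM in 74 cells. Cox7a1, the form of heart and skeletal muscle, had 1.85 CPM in 6 cells.

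In the Mki67-high library groups Atp5g3 had 161, 450 and 694 CPM (lowest, median and highest), and in the Mki67-low groups 153, 546 and 911 CPM. Atp5g1 had 1.273, 10.3 and 19.1 CPM against 1.98, 5.07 and 91.6 CPM. The classes overlapped for both genes, and the order of Atp5g3 above Atp5g1 above Atp5g2 was that of the class means in each of the 4 classes. Coding sequence of 95% or higher identity occurred elsewhere in the annotation for Atp5g1 and Atp5g2 and not for Atp5g3, so the levels of Atp5g1 and Atp5g2 are uncertain where reads matched more than 1 place.

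**Figure D2:**
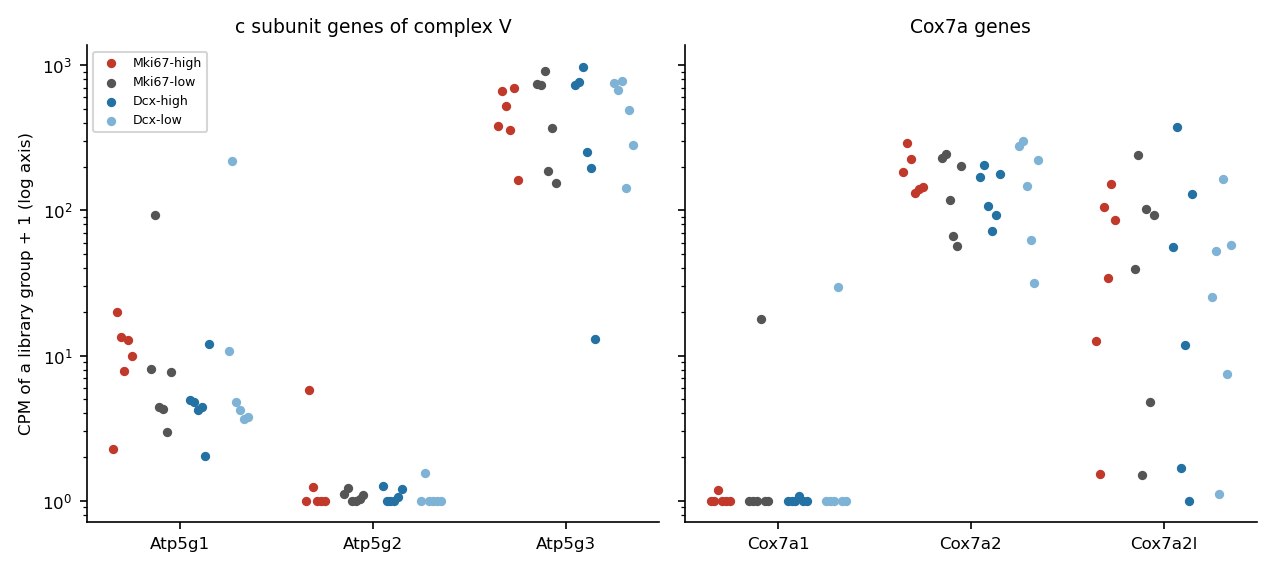
CPM plus 1 (log axis) of the c subunit genes (left) and the Cox7a genes (right); each point is 1 of 6 library groups in the class given by its colour. Atp5g3 lies above Atp5g1 and Atp5g2 in the class means, and most library groups of Atp5g2 and Cox7a1 are at or near 0 CPM.

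The first comparison asked whether these genes differ between Mki67-high and Mki67-low cells. The summed level was 12069 ± 3144 CPM (SD, n = 6 library groups) in Mki67-high and 10762 ± 2657 CPM in Mki67-low cells. It ran from 9940 to 18104 CPM with a median of 10811 in the former and from 6996 to 14207 CPM with a median of 10904 in the latter. The ranges overlapped, and the Mki67-high sum was higher in 4 of 6 library groups. The highest value, 18104 CPM, came from library group 3, whose Mki67-high cells included 1 of the cells with over 10000 genes. Single Mki67-high cells of that group ran from 9055 to 22799 CPM. The cell with over 10000 genes had the 22799 CPM, and other cells had 21982 and 21312 CPM. Complex I had 4429 ± 1715 CPM against 3740 ± 918 CPM (higher in 3 of 6 groups), and complex IV 2007 ± 830 CPM against 1789 ± 784 CPM (higher in 5 of 6). For complex V the sums were 3847 ± 965 and 3595 ± 1240 CPM, for complex III 1254 ± 395 and 1113 ± 243 CPM, and for complex II 532 ± 199 and 525 ± 266 CPM. Each of these differences was smaller than the SD between library groups.

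**Figure D3:**
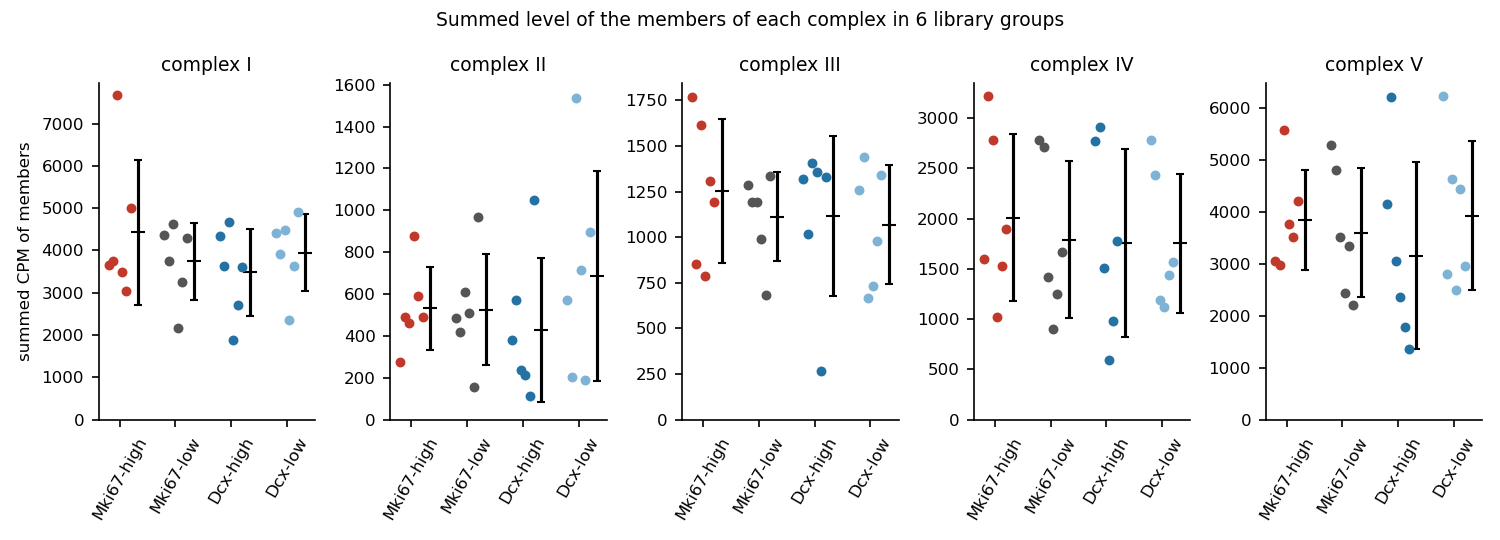
Summed CPM of the members of each complex in the Mki67 and Dcx classes; each point is 1 of 6 library groups, in the order of their numbers within a class, and bars give the mean and SD. The ranges of the classes compared overlap in every complex.

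Per class and library group, the counts of the cells were added up, and these sums were compared with edgeR's quasi-likelihood test at a Benjamini-Hochberg adjusted p-value under 0.01. Of the 79 members, 73 had enough counts to be tested, and Atp5g2, Atp5l-ps1, Atp5l2, Atp5s, Atp5sl and Cox7a1, each with a count in under 20 cells, did not. Of the 73 members 0 passed, and the lowest adjusted p-value among them was 0.77. Over the 9084 genes tested besides Mki67, 2 passed (0.022%), both higher in Mki67-high cells. These were the mitotic genes Cdc20 (248 ± 208 against 0.12 ± 0.10 CPM) and Tacc3 (351 ± 208 against 0.35 ± 0.17 CPM). With the library group as a block in edgeR, 0 genes passed and both had an adjusted p-value of 0.019, and Cdc20 also missed the threshold whenever 1 library group was left out (0.011 to 0.032). At an unadjusted p-value under 0.05 edgeR gave 0 members, against 7.33% of all genes tested, and DESeq2 called 0 members, with 1 member passing 0.05 before adjustment. Biological variation, as a coefficient, was 172%. The standard errors of the members' log2 fold changes ran from 0.49 to 1.71. Their median was 0.9996, about the size of a 2-fold difference, so changes of that size and much larger ones could go undetected. In simulated counts, with changed genes drawn from all those tested, edgeR called 0 of 50 at 2-fold and 0 of 50 at 4-fold. At 16-fold it called 1 of 50, and at 64-fold 5 of 50. The median standard error over all genes tested was 1.63, larger than that of the members, so these shares need not hold for the members.

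The log2 fold changes of the members lay on either side of 0, with 38 positive and 35 negative values. Their median was 0.10, against -0.18 over all genes tested, and they ran from -1.66 for Sdhc to 1.63 for Ndufs5. By complex the medians were 0.10 for complex I, -0.29 for complex II, -0.12 for complex III, 0.13 for complex IV and -0.12 for complex V. Core and accessory subunits of complex I had medians of 0.32 and 0.09, and the F1 subunits of complex V had -0.23. DESeq2 size factors in place of TMM moved the median of all genes from -0.18 to 0.09 and that of the members to 0.31, with 50 positive and 23 negative values. The medians of complexes III and V then turned to 0.17 and 0.19, while that of complex II stayed below 0 at -0.075. Only Atp5h, a peripheral stalk subunit of complex V, was higher in Mki67-high cells in all 6 library groups, 1 of 73 members against 2.19% of all genes. None of the 73 was lower in all 6, against 3.2% of all genes.

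Atp5h (chromosome 11, 115415689 to 115419962) had 26.2, 58.6 and 287 CPM (lowest, median and highest library group) in Mki67-high and 21.2, 35.5 and 59.99 CPM in Mki67-low cells. The ranges overlapped, and 287 CPM came from library group 2. The log2 fold change of Atp5h was 1.19 (standard error 1.06, edgeR adjusted p = 0.84) and 0.59 without that group. The annotation holds 4 other genes that share its coding sequence at 95% or higher identity, so its level is uncertain. Ndufs5, an accessory subunit of complex I, had 2.17, 21.8 and 49.1 CPM against 3.62, 6.095 and 13.4 CPM, which gave 1.63 on the log2 scale (standard error 1.274). Its coding sequence too has a close copy. The log2 value of Ndufs5 was -0.025 when Mki67-low cells were those with no Mki67 count, a definition that leaves 5 library groups.

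Some tested members had the same direction in 5 of 6 library groups, and how many of all genes did so was not computed. After Ndufs5, the largest fold changes among those higher in Mki67-high cells were those of Sdhd, Uqcrc2 and the accessory subunit Ndufc1. Sdhd had 51.5, 176 and 411 CPM against 0.20, 80.95 and 199 CPM, Ndufc1 had 21.6, 106 and 182 CPM against 14.8, 27.3 and 101 CPM, and Uqcrc2 had 32.7, 343 and 632 CPM against 0.55, 124 and 313 CPM. The ranges overlapped for each. In the opposite direction, Uqcrfs1 had 0.21, 51.3 and 178 CPM in Mki67-high against 84.0, 148 and 255 CPM in Mki67-low cells (log2 fold change -1.32, standard error 1.24). Ndufa1 had 5.69, 93.8 and 175 CPM against 81.1, 126 and 232 CPM. The iron-sulfur core subunit Ndufs8 had 6.51, 52.7 and 144 CPM against 18.04, 93.6 and 179 CPM. These 3 genes were lower in 5 of 6 library groups. The adjusted p-values of these 8 genes from edgeR were between 0.81 and 0.92.

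The most abundant members had smaller fold changes in the sums, and the standard errors given here exceeded them in size. Cox6a1 had 154, 452 and 1820 CPM in Mki67-high and 291, 633 and 1186 CPM in Mki67-low library groups (log2 fold change -0.11, standard error 0.58). Atp5a1 had 373, 852 and 1583 CPM against 369, 1037 and 1601 CPM (log2 fold change -0.29, standard error 0.49). For Atp5b, the beta subunit of F1, the values were 338, 696 and 1392 CPM against 195, 408 and 1150 CPM (0.52, standard error 0.54), higher in 5 of 6 library groups. Cox7a2 had a log2 fold change of 0.25 and Ndufa4 of -0.14. All of these ranges overlapped.

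**Figure D4:**
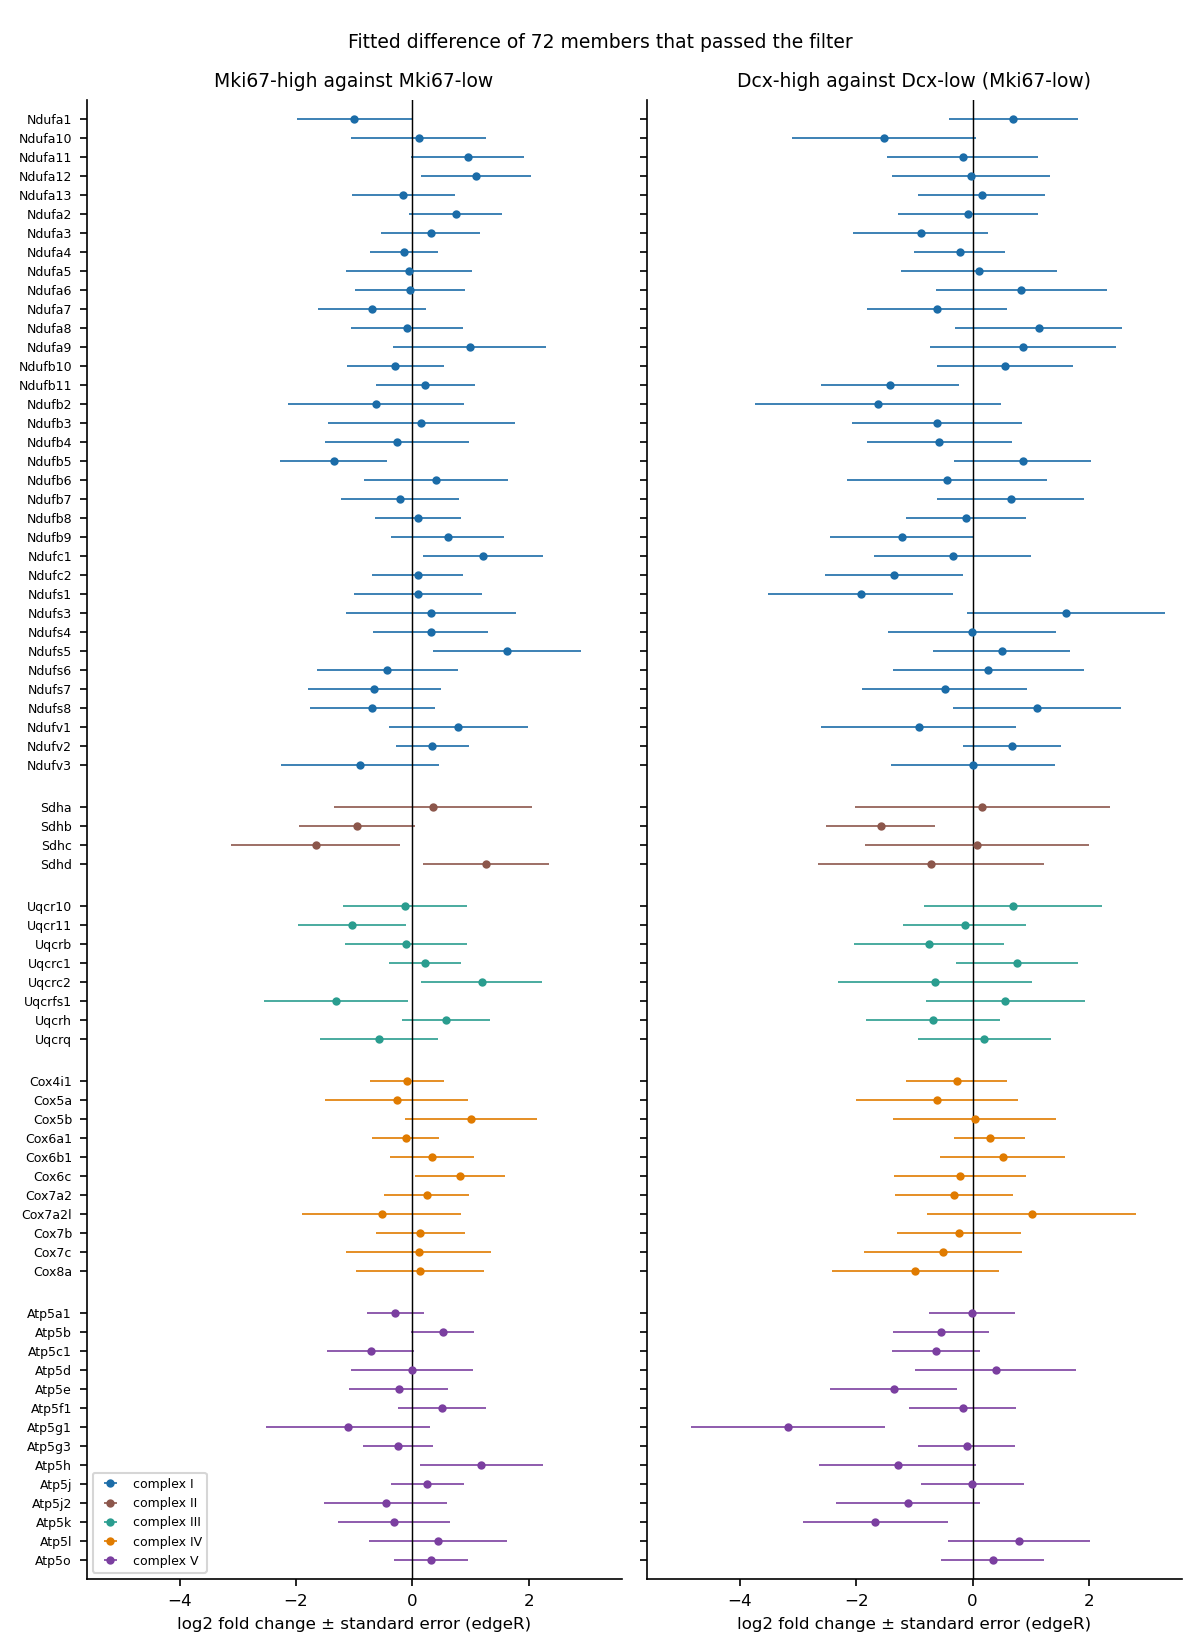
Fitted log2 fold change of 72 of the 73 tested members with its standard error (edgeR) for Mki67-high against Mki67-low cells (left) and Dcx-high against Dcx-low cells among the Mki67-low cells (right), coloured by complex. Values spread on either side of 0 in every complex, and 0 members passed the threshold in either comparison.

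A sum is carried by cells with the most reads, so each cell was also given equal weight. For this, the mean of log2(CPM + 1) per class and library group was compared with limma, with the library group as a block. On this scale 65 of 73 members had a positive difference (89.0%), as did 75.6% of all genes, and the median difference was 0.95 for members and 0.43 for all genes. Of the members, 0 passed 0.01 after adjustment, and 15 (20.5%) had an unadjusted p-value under 0.05, all higher in Mki67-high cells, against 18.3% of all genes. Among the abundant members, Atp5b had a difference of 1.78 (standard error 0.60, adjusted p = 0.089) and Atp5g3 of 1.503 (standard error 0.65, adjusted p = 0.21) by limma. Ndufa12, an accessory subunit of complex I, had the lowest adjusted p-value, 0.043, with a difference of 2.54 (standard error 0.73). In the sums Ndufa12 had 54.6, 145 and 184 CPM in Mki67-high and 10.1, 56.3 and 128 CPM in Mki67-low library groups, higher in 5 of 6 (log2 fold change 1.10, standard error 0.94, edgeR adjusted p = 0.83). Its coding sequence has 1 close copy in the annotation.

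More members were detected in Mki67-high cells, and so were more genes of all kinds. After thinning every cell to 1000000 counts, which left out the cell with 15071, Mki67-high cells had a count for 54.7 ± 4.3 members (SD, n = 6 library groups) and Mki67-low cells for 46.1 ± 3.1. The difference was positive in 6 of 6 library groups, from 0.15 to 16.3 members. Without thinning, the median number of members at 5 counts or more was 50 in Mki67-high and 40 in Mki67-low cells. Over all genes, thinned cells had a count for 4177 ± 752 and 3155 ± 149, again higher in 6 of 6. The ratio of Mki67-high to Mki67-low was 1.19 ± 0.13 for members and 1.33 ± 0.24 for all genes, and the ratio for members was the larger in 1 of 6 library groups. Without the cells of over 10000 genes the ratios were 1.17 ± 0.13 and 1.19 ± 0.10. The part of the number of detected genes in the differences of log values was not tested.

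**Figure D5:**
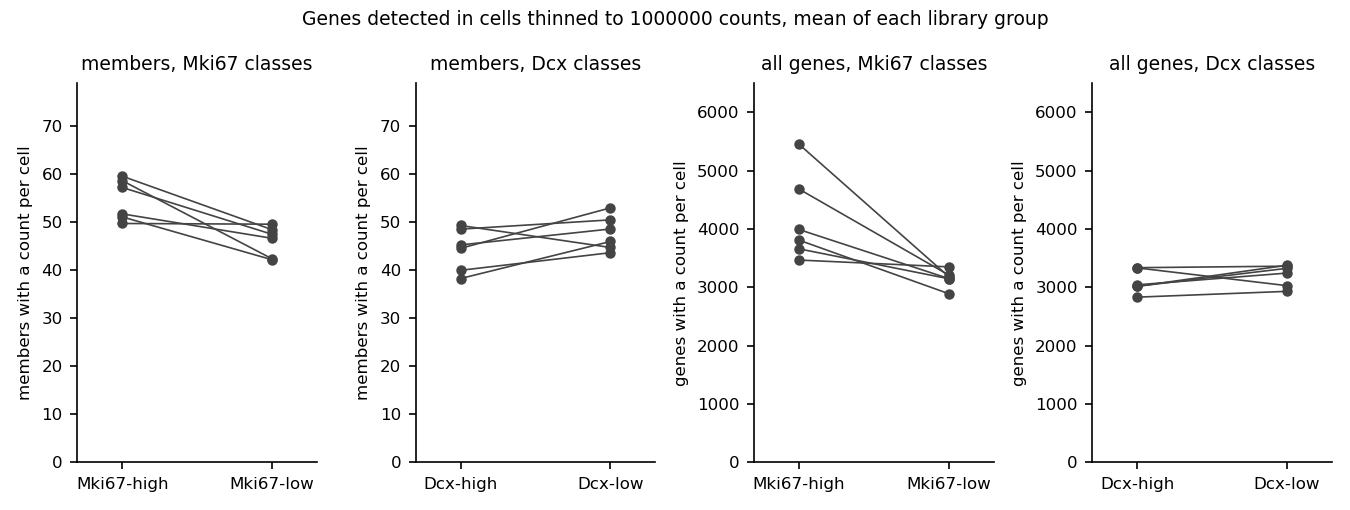
Mean number of members (left pair of panels) and of all genes (right pair) with a count per cell after thinning to 1000000 counts; lines join the classes of a library group. Members and all genes are more often detected in Mki67-high cells in 6 of 6 library groups, and less often in Dcx-high cells in 5 of 6.

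The second comparison asked whether the genes differ with Dcx among Mki67-low cells. The 10 progenitor markers, Mki67 among them, summed to 131 to 2936 CPM in Dcx-high and 874 to 11350 CPM in Dcx-low library groups. The Dcx-low range overlapped that of the Mki67-high groups, 6250 to 12522 CPM, so Mki67-low cells cannot all be taken as non-cycling. Astroglial markers summed to 324 to 1059 CPM in Dcx-high and 4.37 to 7670 CPM in Dcx-low groups, higher in the former in 2 of 6. For oligodendrocyte lineage markers the sums were 5.01 to 999 and 66.3 to 1669 CPM (higher in 2 of 6). Those of inhibitory neuron markers were 0.061 to 1225 and 0 to 199 CPM (higher in 4 of 6). The part of these cell types in the results was not tested. The summed level of the members was 9936 ± 3441 CPM in Dcx-high and 11383 ± 2571 CPM in Dcx-low cells. It ran from 5860 to 14352 CPM with a median of 10012 in the former and from 7398 to 15252 CPM with a median of 11233 in the latter. The ranges overlapped, and the Dcx-high sum was higher in 1 of 6 library groups. Complex V had 3156 ± 1793 against 3927 ± 1438 CPM and complex I 3478 ± 1029 against 3947 ± 906 CPM, each higher in 1 of 6. Complex IV was at 1760 ± 937 against 1755 ± 690 CPM, complex III at 1116 ± 439 against 1069 ± 325 CPM and complex II at 427 ± 343 against 685 ± 502 CPM. In single Mki67-low cells, the median sum was 10904 CPM below 100 CPM of Dcx (13 cells), 12606 CPM from 100 to 1000 CPM (17 cells) and 10296 CPM from 1000 CPM (45 cells). The ranges of single cells were wide, from 1432 to 26828 CPM in the last band.

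Of the 73 members 0 passed, with a lowest adjusted p-value of 0.995 from edgeR, and of the 6682 genes tested besides Dcx 0 passed (0.0%). At an unadjusted p-value under 0.05 there were 0 members, against 5.16% of all genes. DESeq2 called 0 members, with 2 members passing 0.05 before adjustment, and limma on log values gave 0 members at either level, against 5.79% of all genes at an unadjusted p-value under 0.05. In simulated counts edgeR called 0 of 50 genes changed 4-fold and 9 of 50 changed 64-fold. Biological variation in the data, as a coefficient, was 184%. The members' standard errors had a median of 1.25 (0.61 to 2.19), against 1.79 over all genes tested. Of the log2 fold changes 28 were positive and 45 negative, with a median of -0.17, against 0.03 over all genes. They reached 1.61 for Ndufs3, and Atp5g1 was at -3.17. The value of Atp5g1 rested on library group 2, where Dcx-low cells had 216 CPM against 2.65 to 9.75 CPM in the other groups, and it was -0.046 without that group. The medians were -0.10 for complex I, -0.32 for complex II, 0.03 for complex III, -0.23 for complex IV and -0.36 for complex V. None of the 73 was higher in Dcx-high cells in all 6 library groups, against 1.18% of all genes. Atp5h was lower in all 6, 1 of 73 against 1.77% of all genes.

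Atp5h had 4.48, 14.5 and 45.1 CPM in Dcx-high and 22.9, 49.2 and 81.1 CPM in Dcx-low library groups, and the ranges overlapped. The comparisons by Mki67 and by Dcx share the Mki67-low cells. Sdhb had 30.2, 131 and 379.5 CPM against 44.97, 300.3 and 1172 CPM (log2 fold change -1.58, standard error 0.94). Library group 3 gave the 1172 CPM, and without it the log2 value of Sdhb was -0.48. The accessory subunits Ndufa10, Ndufb11 and Ndufc2 were also lower in 5 of 6 library groups. Ndufa10 had 0.12, 28.99 and 291 CPM against 0.51, 65.3 and 792 CPM. Ndufb11 had 7.59, 62.1 and 144 CPM against 28.8, 183 and 278 CPM. Ndufc2 had 5.27, 42.8 and 176 CPM against 72.4, 183 and 257 CPM.

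Ndufs8, Ndufb5, Ndufa6, Ndufv2 and Cox6b1 were higher in Dcx-high cells in 5 of 6 library groups. Ndufs8 had 11.8, 128 and 284 CPM against 0.12, 70.1 and 134 CPM. Ndufv2, an iron-sulfur core subunit of the NADH-oxidising end of complex I, had 133, 327 and 468.5 CPM against 45.7, 186 and 519.6 CPM. Ndufb5 had 80.1, 154 and 418 CPM against 0.36, 120.2 and 249 CPM. Ndufa6 had 38.9, 90.2 and 176 CPM against values from 0 to 143 CPM with a median of 44.97. Cox6b1, which faces the intermembrane space, had 62.9, 129 and 307 CPM against 14.8, 129 and 236 CPM. Every one of these ranges overlapped, and the adjusted p-value from edgeR was 0.999 for each of these 9 genes and for Atp5h. Thinned Dcx-high cells had a count for 44.3 ± 4.5 members and Dcx-low cells for 47.8 ± 3.6, with a positive difference in 1 of 6 library groups, and for 3096 ± 199 and 3211 ± 188 of all genes, also higher in 1 of 6.

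Genes that work beside the members were read from the same fits. Of the 13 mitochondrially encoded subunits 7 were listed. Their sum was 19427 ± 8608 CPM in Mki67-high and 15246 ± 7305 CPM in Mki67-low cells, higher in 5 of 6 library groups, and all 7 had positive log2 fold changes (0.07 to 0.46, median 0.26). In Dcx-high cells the sum was 13572 ± 5966 CPM against 16367 ± 8899 CPM, higher in 1 of 6, and 6 of 7 log2 fold changes were negative. Of the assembly factors, which build the complexes without staying in them, 32 were tested by Mki67 (median -0.31) and 20 by Dcx (median -0.96). The 17 tested enzymes of the tricarboxylic acid cycle and pyruvate dehydrogenase had medians of 0.34 and 0.39. Regulators of mitochondrial biogenesis had 0.45 (14 genes) and 0.21 (12 genes), and electron carriers and subunits with other names had -0.10 (22 genes) and 0.45 (15 genes). Glycolytic enzymes had 0.02 (15 genes) and -0.59 (11 genes). Their sum was 1834 ± 616 CPM in Mki67-high and 1513 ± 322 CPM in Mki67-low cells, higher in 5 of 6 library groups, and 1262 ± 317 CPM in Dcx-high and 1806 ± 542 CPM in Dcx-low cells, higher in 1 of 6 library groups. In each of these 6 lists 0 genes passed the threshold in either comparison with edgeR, and the lowest adjusted p-value was 0.42.

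Pairs of members were only weakly related from cell to cell. Over 108 thinned cells, the 2628 pairs among the 73 tested members had a median Spearman coefficient of 0.10, with 0.104 for the 810 pairs within a complex and 0.101 for the 1818 pairs between complexes. The highest value, 0.43, belonged to Cox5b and Ndufa12. The cells of a pair share library and depth, so these values are descriptions. Close copies also limit single genes. For 22 members the annotation holds other genes with 95% or higher identity over more than 50% of the coding sequence, for 53 it holds none, and 27 members share exon positions with another gene. How the counting treated reads that match more than 1 gene is not given in the sources used here.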

How the data were processed

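Single cells of P7 mouse cerebella were captured on C1 chips and sequenced as Smart-seq libraries. The authors aligned reads to mm10 with STAR 2.4.1d, counted them per gene with HTSeq 0.6.1 (names and versions also stand in the submitters' processing notes) and deposited raw counts without normalization. Annotation, strand setting and treatment of multiply mapped reads are not given in the sources used here. Total counts were 15071 to 8616017 per cell, and every row analysed had a count in at least 3 cells.

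Counts were summed per class and library group, filtered with filterByExpr, normalized by TMM and tested with edgeR 4.0.16 (quasi-likelihood, Benjamini-Hochberg, threshold 0.01) in R 4.3.3. Alternatives used DESeq2 1.42.0, limma 3.58.1 on mean log2(CPM + 1) or log2(CPM + 10), other filters, thresholds, class limits and thinned counts. The edgeR fits had no block for library group, which was run as an alternative, and the limma fits had one. The code was tested on simulated data. CPM were computed on column totals. Intervals are Wilson intervals at 95% that treat cells as independent draws and leave out the spread between library groups. Positions come from GENCODE on GRCm38, with 77 of 79 symbols matched, and upstream sequences from RefSeq. Copies were found with blastn.

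The members, lists and classes were chosen with earlier results of these data known. Members were named when called in either comparison by edgeR or limma, when among the 3 highest per length in a complex, when among the 5 highest or 5 lowest log2 fold changes with the same sign in at least 5 of 6 library groups, or as subunits of complex II, members of isoform families and rows that are not subunits. Atp5b, Ndufa12 and Ndufs3 were named after their values were seen, as were Cdc20 and Tacc3. A single member is not reported here by name, and the sums, counts and medians include it.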

Additional observations from a re-analysis of the deposited data

Results flagged for a closer look

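Values per library group were screened for 1 group far from the other 5, with the gap to the nearest value set against the range. Of 62 sets of 6 values, 6 were flagged, where chance flags about 1 in 20. The summed level of all members in Mki67-high cells was 18104 CPM in library group 3, against a median of 10811 CPM. The complex III sum in Dcx-high cells was 265 CPM in library group 5, against a median of 1326 CPM. Atp5h had 287 CPM in the Mki67-high cells of library group 2, against a median of 58.6 CPM. In the Dcx-low cells, Ndufv2 had 519.6 CPM in library group 6 (median 186 CPM), and Sdhb had 1172 CPM in library group 3 (median 300.3 CPM). Sdhb had 379.5 CPM in the Dcx-high cells of library group 1, against a median of 131 CPM.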

How the results depend on the processing

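Members called remained 0 in both comparisons under every alternative run, and the threshold of 0.05 also gave 0 members with edgeR. By Mki67, the number of genes called was 2 and became 6 at a threshold of 0.05, with DESeq2 size factors or with a minimum count of 50, 172 with DESeq2, 114 and 17 with limma on log2(CPM + 1) and log2(CPM + 10), and 1 without cells of unusual depth, without cells with astroglial genes, with thinned cells or with Mki67-high at 500 CPM. It became 0 with Mki67-low as no Mki67 count and 0 with the library group as a replicate block. Leaving out each library group in turn gave 1 to 2, with 1 without group 1, 3, 5 or 6. By Dcx it was 0, and 71 with DESeq2. The median log2 fold change of members by Mki67 was 0.95 with limma on log2(CPM + 1), 0.03 with the replicate block, and -0.0051 to 0.23 with a library group left out. By Dcx it was -0.61 for cells at 1000 CPM or more against cells under 100 CPM, -0.10 with the block and -0.27 to -0.06 with a group left out.

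Members higher in every library group by Mki67 numbered 1, and 0 with thinned cells, 0 with Mki67-high at 500 CPM, 7 with Mki67-low as no Mki67 count (10.8% of all genes, over 5 library groups) and 1 to 4 with a group left out. Members lower in every group numbered 0, and 2 at 500 CPM and 0 to 2 with a group left out. By Dcx, members higher in every group numbered 0, and 1 with thinned cells, 2 in the bands of Dcx and 0 to 2 with a group left out. Those lower numbered 1, and 0 in the bands, 5 when Dcx was split over all cells and 1 to 5 with a group left out. In the main fits the shares of all genes were 2.19% higher and 3.2% lower by Mki67, and 1.18% and 1.77% by Dcx. Except for Mki67-low as no Mki67 count, no share of all genes stands beside the counts of the other settings. The 7 in that setting is given without the number of members tested in it. None of these counts therefore says anything particular to the members. Fewer library groups also make the same direction in every group easier to reach. The causes were not tested.

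The members named for their direction had been picked for large log2 fold changes with the same sign in most library groups. The alternatives refit all or part of the same data, so a kept sign was favoured by that choice. No share for the other members is given beside it, so the counts that follow do not show robustness. Of the members named for their direction, 148 of 152 values by Mki67 and 170 of 171 by Dcx kept their sign. Ndufa1 was 0.035 with limma on log2(CPM + 1), Ndufs8 was 0.40 and 0.12 with limma on log2(CPM + 1) and log2(CPM + 10), and Ndufs5 was -0.025 with Mki67-low as no Mki67 count. By Dcx, Ndufv2 was -0.48 in the bands. Deviations of the same library group in the compared classes correlated at 0.04 to 0.12 by Mki67 and 0.02 to 0.07 by Dcx. Chosen after seeing the data were the length of the coding transcript and the number of detected members without cells of unusual depth or with astroglial genes.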
